A study of Mus musculus with 20 samples.

Results

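The genes described here are 10 markers of T cells and regulatory T cells, namely Cd3d, Cd3e, Cd3g, Trac, Cd4, Cd8a, Cd8b1, Foxp3, Il2ra and Ctla4. They were chosen by gene symbol, to ask whether lymphocytes placed in the uterine cavity leave a trace in uterine RNA, and are 10 of the 45777 genes in the expression table. The study treated a mouse model of implantation failure with peripheral blood mononuclear cells (PBMC), the lymphocytes and monocytes of blood, and sequenced polyA RNA of the uterus just before embryos attach. All 20 animals were mated wild-type B6D2F1 females, 8 to 12 weeks of age, and uteri were collected at 18:00 on day 3.5 after mating. The 5 control mice received no treatment. The 5 mice of the implantation failure (IF) group received RU486 (mifepristone), an antagonist of the progesterone and glucocorticoid receptors, under the skin on the morning of day 3.5. The 5 PBMC mice and the 5 PBMC-hCG mice received the same RU486 injection and, on day 1.5, an intrauterine dose of PBMC from non-pregnant mice, cultured without or with human chorionic gonadotropin (hCG). The control and IF mice had no intrauterine administration, so the cells and the act of administration cannot be told apart in the comparisons with IF. Donor cells were mouse cells, and donor and recipient transcripts cannot be told apart in values per gene.

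T cells recognise antigen with a receptor of alpha and beta (or gamma and delta) chains, which reaches the cell surface only together with the CD3 chains that carry its signal into the cell. The co-receptors CD4 and CD8 divide most alpha-beta T cells into helper and cytotoxic cells, and regulatory T cells, which restrain other immune cells, are marked by the transcription factor FOXP3 and by high levels of the interleukin-2 receptor alpha chain and CTLA4. Around implantation the mouse uterus holds many innate lymphocytes and macrophages and fewer T cells, and regulatory T cells are known for their part in tolerance of the semi-foreign embryo.

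Values are TPM, that is, transcript counts scaled to a fixed library total, corrected for transcript length, so levels may be compared between genes. The library totals lay between 999989 and 999999 TPM, which is the unit and not the sequencing depth. The depth is therefore unknown, and no counting error can be given for the low values below. Of the 10 genes, 7 were above 0 TPM in all 20 libraries and entered the test over 18706 genes. Cd8b1, Foxp3 and Ctla4 were listed at 0 in at least 1 library and were given an exact permutation test instead. All fold changes are differences of log2(TPM + 0.1), a scale that understates the change of genes with low values. Because bulk uterine RNA was sequenced, fewer cells of a type and less RNA per cell cannot be told apart. One control library, replicate 2, stood apart before any comparison was made: its mean correlation with the other control libraries was 0.963, against 0.977 to 0.983 for those, and it held 42.1 TPM of the fat cell gene Adipoq, against at most 4.45 TPM in any other library.

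RNA of all 10 genes was low in the uterus. Cd3g was the most abundant, at 7.78 ± 2.02 TPM (mean ± SD over 20 mice), followed by Trac at 5.26 ± 1.72 TPM, and their means stood at the 40.6th and 34.5th percentile of the tested genes. Cd4 (2.93 ± 0.796 TPM), Cd3d (2.43 ± 0.779 TPM) and Cd3e (2.31 ± 0.907 TPM) came next. Il2ra, at 1.01 ± 0.316 TPM, was the most abundant of the regulatory T cell genes. Cd8b1, Cd8a and Ctla4 had means of 0.593, 0.450 and 0.355 TPM, and Foxp3, at 0.0709 TPM, was last and was listed at 0 in 6 of the 20 libraries. Cd3g was first, Trac second and Foxp3 last in each of the 4 groups. Most neighbours in this order overlapped between mice. The ranges of neighbours were separate for Cd3g and Trac in the control mice, for Cd3d and Il2ra in the IF mice, and for Trac and Cd3e, Cd3d and Il2ra, and Ctla4 and Foxp3 in the PBMC mice, whereas all neighbours overlapped in the PBMC-hCG mice. The CD3 genes, Trac and Cd4 were above 0 in every mouse. Foxp3, which defines regulatory T cells, was near 0.

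Within the 5 comparisons tested, the only call among these genes lay between the control and IF mice, neither of which received cells, and recipients were not tested against control mice. Trac rose in the IF group, 1 of the 7 tested genes in that comparison, and was called in 23 of 32 alternatives (limma adjusted p from 0.0192 to 0.124). No tested gene passed the threshold in the PBMC or the PBMC-hCG uterus against the IF uterus, or between those 2 groups. Trac (PBMC versus IF and PBMC-hCG versus PBMC) and Il2ra (PBMC-hCG versus IF and both groups versus IF) had a raw p under 0.05 there and an adjusted p above it, with Il2ra in PBMC-hCG versus IF the lowest at 0.0715 (0.00406 to 0.196 over 32 alternatives). Its log2 fold change was 0.63, and 4 of 5 mice lay above the highest IF mouse.

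In IF versus control, 1 of the 7 tested genes had an adjusted p under 0.05 in limma, a direction upward, against 21.9% of all 18706 tested genes (13.4% upward and 8.53% downward). Trac and Cd4, 2 genes, had a raw p under 0.05, which 33.9% of all genes had. None reached the rule of the study, a fold change of at least 2 with a raw p under 0.05, which 4.03% of all genes reached, and none had groups that did not overlap, as 12.8% of all genes did. Here and below the cutoffs of this rule were applied to limma values on log2(TPM + 0.1), whereas the study applied them to edgeR values from read counts. The median log2 fold change of the 7 genes was 0.19, against 0.02 for all tested genes. The share of these genes that was called was no higher than that of the genes at large.

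In PBMC versus IF, limma called 0 of the 7 genes, and it called 0% of all genes. Trac alone had a raw p under 0.05, against 6.79% of all genes. None met the study rule or had separate groups, against 0.438% and 1.01% of all genes. The median log2 fold change was 0.31, against 0.02 for all genes, and 6 of the 7 values were above 0, against 55.4% of all genes. In IF versus control, PBMC-hCG versus IF, PBMC-hCG versus PBMC and both groups versus IF, 5, 5, 3 and 7 of the 7 were above 0. In PBMC-hCG versus IF, limma again called 0 of the 7, against 13.6% of all genes (7.61% upward and 5.99% downward). One gene, Il2ra, had a raw p under 0.05, which 35% of all genes had. The study rule was met by none of the 7 and by 2.31% of all genes, and separate groups were found for none of the 7 and for 7.24% of all genes. The median was 0.23, against 0.05.

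Between PBMC-hCG and PBMC, limma called 0 of the 7 genes and 0.0107% of all genes. Trac alone had a raw p under 0.05, as did 16.2% of all genes. None met the study rule (0.893% of all genes) or had separate groups (3.46%), and the median was -0.18 against 0.02. With the mean of both PBMC groups set against IF, so that 10 recipients stood against 5 mice, limma called 0 of the 7 and 0.0214% of all genes. Il2ra alone had a raw p under 0.05, against 24.1% of all genes. None met the study rule (0.738%) or had separate groups (0.241%), and the median was 0.20 against 0.04. The 3 comparisons with IF use the same 5 IF mice, and the IF versus control comparison shares them too, so these comparisons do not stand as separate evidence.

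**Figure D1:**
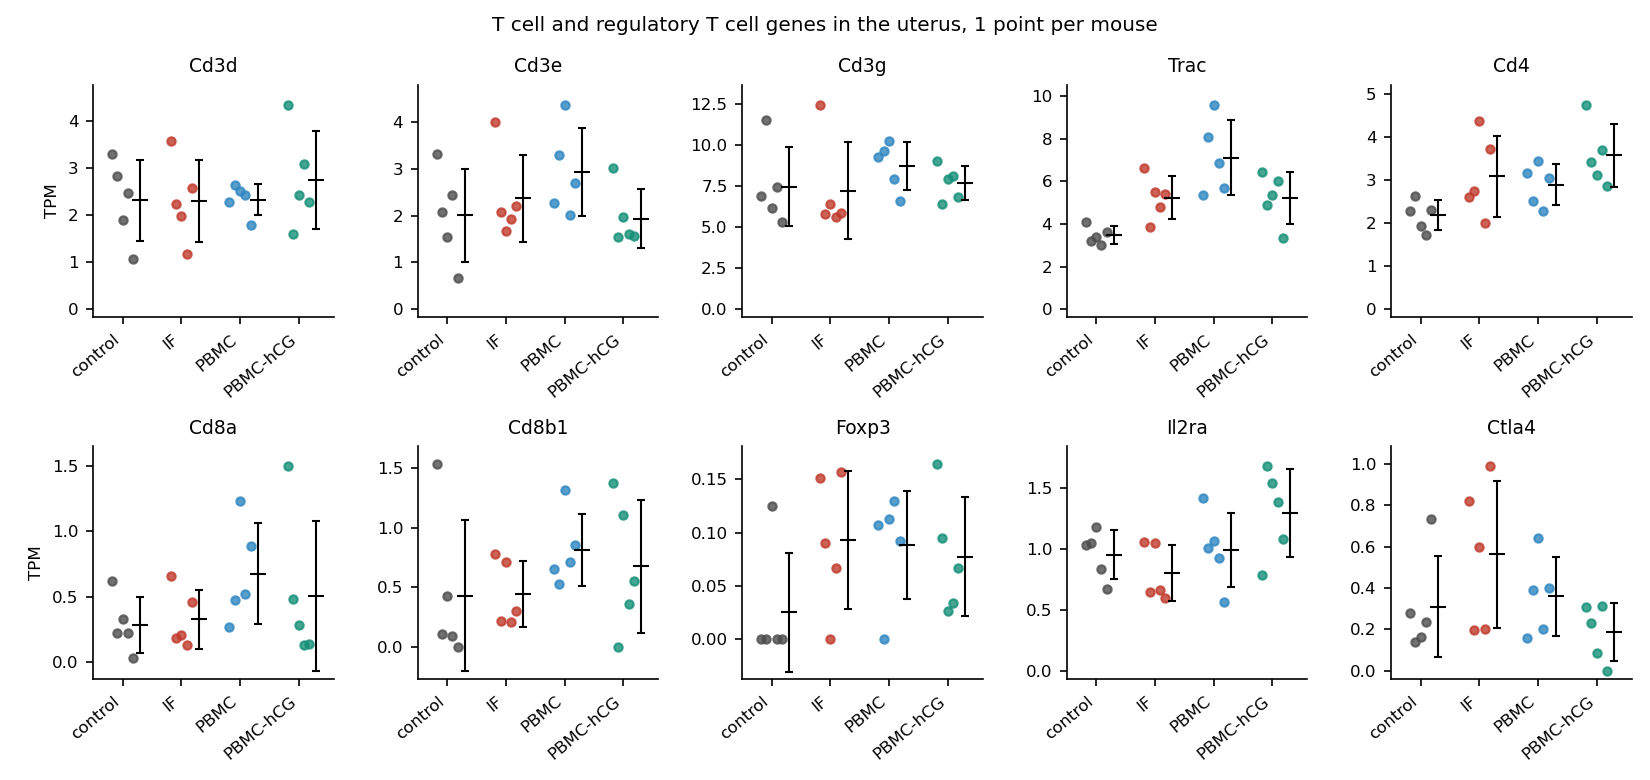
TPM of the 10 genes (vertical axes, linear, each with its own range) in the uterus of 5 control, 5 IF, 5 PBMC and 5 PBMC-hCG mice, with 1 point per mouse and the group mean ± SD beside the points (some error bars reach below 0 TPM, where no value can lie). IF overlaps each other group in every panel, and 4 of the 5 IF mice lie above the highest control mouse for Trac.

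The CD3 genes encode the delta, epsilon and gamma chains of the signaling complex of the T cell receptor. Cd3e stood at 3.33, 2.08, 1.54, 2.45 and 0.665 TPM in the control mice and at 4.0, 2.08, 1.68, 1.92 and 2.20 TPM in the IF mice. In the PBMC mice it stood at 2.28, 3.29, 4.37, 2.01 and 2.70 TPM, and in the PBMC-hCG mice at 3.02, 1.54, 1.96, 1.60 and 1.57 TPM. PBMC replicate 3 and IF replicate 1 were the highest mice, control replicate 5 was far below the others, and all 4 groups overlapped. The log2 fold change of Cd3e was 0.31 (95% interval -0.39 to 1.0) in PBMC versus IF and -0.26 (-0.96 to 0.44) in PBMC-hCG versus IF, with adjusted p = 0.864 and 0.606. Against the PBMC mice, 4 of the 5 PBMC-hCG mice lay below the lowest value, with a log2 fold change of -0.57 and an adjusted p of 0.374.

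Cd3d had nearly the same mean in the control, IF and PBMC mice, 2.32 ± 0.867, 2.31 ± 0.878 and 2.34 ± 0.330 TPM (SD, 5 mice each), and 2.75 ± 1.04 TPM in the PBMC-hCG mice. Its log2 fold change was 0.09 (95% interval -0.54 to 0.72) in PBMC versus IF and 0.25 (-0.38 to 0.88) in PBMC-hCG versus IF. These intervals leave room for a change of more than 1.5 times upward in either recipient group. Cd3g had 6.93, 11.5, 6.16, 7.43 and 5.33 TPM in the control mice and 12.5, 5.83, 6.41, 5.61 and 5.86 TPM in the IF mice. In the PBMC mice it had 9.31, 9.63, 10.3, 7.91 and 6.61 TPM, and in the PBMC-hCG mice 9.02, 6.43, 7.92, 8.13 and 6.85 TPM. The other 4 IF mice lay below every PBMC mouse, but IF replicate 1 lay above all of them, so the groups overlapped. Cd3g had a log2 fold change of 0.33 in PBMC versus IF (adjusted p = 0.783) and of 0.15 in PBMC-hCG versus IF (adjusted p = 0.659), and all 10 recipients lay above the median of the IF mice. Summed over the 3 CD3 genes, the level was 11.8 ± 3.62 TPM in control, 11.9 ± 4.60 TPM in IF, 14.0 ± 2.43 TPM in PBMC and 12.4 ± 2.60 TPM in PBMC-hCG mice.

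Trac encodes the constant part of the receptor's alpha chain and so marks alpha-beta T cells. The control mice had 4.10, 3.19, 3.40, 3.02 and 3.64 TPM and the IF mice 6.64, 3.84, 5.52, 4.81 and 5.41 TPM. The PBMC mice had 5.34, 8.09, 9.59, 6.86 and 5.69 TPM and the PBMC-hCG mice 6.44, 4.90, 5.36, 6.04 and 3.33 TPM. The control mice were low and close together, each PBMC mouse lay above the highest control mouse and the 3 highest values of the series were PBMC mice, and IF replicate 2 and PBMC-hCG replicate 5 lay within the control range. PBMC and control mice differed by RU486 as well as by cells and were not compared over all genes. No share of all genes can therefore be set beside this separation, and IF and control mice alone were apart for 12.8% of all genes. Trac rose from 3.47 ± 0.424 TPM in the control group to 5.24 ± 1.03 TPM in the IF group (SD, 5 mice each), a fold change of 1.48. Its log2 fold change was 0.57 with a standard error of 0.19 and a 95% interval of 0.18 to 0.96 (limma adjusted p = 0.0354), and 4 of the 5 IF mice lay above the highest control mouse. The call was lost on leaving out control replicate 2, 3 or 4 (adjusted p = 0.0546, 0.0653 and 0.0832) or IF replicate 1, 3 or 5 (adjusted p = 0.0910, 0.0661 and 0.0696). Over 32 alternative settings the adjusted p ran from 0.0192 to 0.124, and Trac was called in 23 of them.

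In the PBMC group Trac averaged 7.12 ± 1.76 TPM, and 3 of the 5 mice lay above the highest IF mouse. The log2 fold change against IF was 0.42 (95% interval 0.03 to 0.81), with a raw p under 0.05 in limma and an adjusted p of 0.724. The adjusted p of Trac in PBMC versus IF lay between 0.120 and 1.0 over the alternatives. In the PBMC-hCG group Trac averaged 5.22 ± 1.21 TPM, close to the IF mean, with a log2 fold change of -0.02 against IF (95% interval -0.41 to 0.37). Against the PBMC group the PBMC-hCG value was -0.44 (raw p under 0.05 and adjusted p = 0.289 in limma, 0.0587 to 0.661 over the alternatives), and 2 of the 5 mice lay below the lowest PBMC mouse. With both recipient groups pooled the log2 fold change of Trac against IF was 0.20 (95% interval -0.14 to 0.54, adjusted p = 0.451).

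The constant genes of the other receptor chains were listed beside Trac, for beta (Trbc1 and Trbc2), delta (Trdc) and gamma chains (Tcrg-C1, Tcrg-C2 and Tcrg-C4). Trbc1 was the most abundant of these 7 genes, at 18.1 ± 2.60, 26.1 ± 8.46, 24.5 ± 4.63 and 25.8 ± 5.24 TPM in the control, IF, PBMC and PBMC-hCG mice. Trbc2 stood at 15.2 ± 2.50, 20.4 ± 4.52, 20.2 ± 2.12 and 20.8 ± 3.46 TPM in the same order. For both beta genes the IF, PBMC and PBMC-hCG means were close to each other and above the control mean. In IF versus control the log2 fold change was 0.47 for Trbc1 (adjusted p = 0.102) and 0.41 for Trbc2 (adjusted p = 0.0558), and in PBMC versus IF it was -0.05 and 0.01. Of the 6 tested constant genes, 1 (Trac) was called in IF versus control, against 21.9% of all genes, and 3 had a raw p under 0.05, against 33.9%. The median of the 6 was 0.44. For the other comparisons, the shares of all genes are those given above beside the 7 tested genes. In the other 4 comparisons limma called 0 of the 6, with 1, 0, 3 and 0 genes at a raw p under 0.05 in PBMC versus IF, PBMC-hCG versus IF, PBMC-hCG versus PBMC and both groups versus IF. The 3 genes in PBMC-hCG versus PBMC did not point one way. Trac (-0.44) and the gamma gene Tcrg-C1 (-0.67) were lower, and Tcrg-C4 (0.37) was higher. Summed over the 7 genes, constant segments made up 48.4 ± 3.36 TPM in control, 67.4 ± 13.4 TPM in IF, 70.6 ± 11.6 TPM in PBMC and 68.1 ± 11.4 TPM in PBMC-hCG mice.

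The variable segments of the receptor genes, of which each T cell joins 1 per chain to a constant gene, were looked at after these values had been seen and are given as a description. The table holds 175 of them (128 alpha, 35 beta, 6 delta and 6 gamma), 97 were above 0 TPM in at least 1 library, and 2 were above 0 in all 20. The number above 0 was 31, 17, 18, 14 and 12 in the control mice and 32, 20, 28, 18 and 21 in the IF mice. It was 20, 18, 33, 32 and 33 in the PBMC mice and 41, 21, 24, 19 and 20 in the PBMC-hCG mice. The group means were 18.4 ± 7.44, 23.8 ± 5.93, 27.2 ± 7.53 and 25.0 ± 9.14 segments, and the ranges overlapped between all groups. The number above 0 depends on sequencing depth, which is unknown here. In sum the segments made up 16.3 ± 2.42, 19.0 ± 7.07, 25.0 ± 4.17 and 18.9 ± 3.64 TPM in the 4 groups. For this sum each PBMC mouse (19.8 to 30.5 TPM) lay above the highest control mouse (19.2 TPM), and the PBMC mice overlapped the IF mice (12.6 to 30.0 TPM). PBMC and control mice differed by RU486 as well, and their separation was not tested. The delta segment Trdv4 was the most abundant, at 7.31 ± 0.933, 7.06 ± 2.88, 7.11 ± 1.75 and 7.10 ± 1.55 TPM in the 4 groups. The gamma segment Tcrg-V6, whose mouse gamma-delta T cells are known as residents of the uterus, stood at 1.50 ± 1.04 TPM in control, 2.09 ± 1.11 TPM in IF, 3.34 ± 0.700 TPM in PBMC and 1.04 ± 0.740 TPM in PBMC-hCG mice. The delta segment Trdv2-2, next in abundance, was lowest on average in the PBMC mice, at 1.49 ± 0.573, 2.18 ± 1.44, 1.33 ± 0.779 and 1.93 ± 0.992 TPM in the 4 groups. The beta segments Trbv13-1 and Trbv13-2, which follow, were highest on average in the PBMC mice (1.47 ± 0.733 and 1.21 ± 0.542 TPM). Short and closely related segments share reads, so the values of single segments are uncertain.

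Cd4 encodes the co-receptor of helper and most regulatory T cells and is also made by some macrophages and dendritic cells. It stood at 2.28, 2.62, 1.94, 1.73 and 2.31 TPM in the control mice and at 2.59, 2.74, 4.35, 2.0 and 3.71 TPM in the IF mice. The PBMC mice had 3.15, 2.51, 3.43, 2.28 and 3.05 TPM, and the PBMC-hCG mice had 4.74, 3.42, 3.12, 3.69 and 2.86 TPM. The control mice were low, each PBMC-hCG mouse lay above the highest control mouse, and the IF mice spread over both ranges. As with Trac, these recipients and the control mice differed by RU486 too, and no share of all genes stands beside this separation. In IF versus control 3 of the 5 mice lay above the highest control mouse, and the log2 fold change was 0.45 (95% interval 0.05 to 0.85), with a raw p under 0.05 and an adjusted p of 0.102 in limma. Cd4 passed the threshold in that comparison when IF replicate 4 was left out (adjusted p = 0.0325), and in none of the other 31 alternatives, over which the adjusted p reached 0.254. In PBMC versus IF the log2 fold change of Cd4 was -0.06 (95% interval -0.46 to 0.34), and in PBMC-hCG versus IF it was 0.23 (-0.16 to 0.63).

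The CD8 co-receptor of cytotoxic T cells is a dimer of the products of Cd8a and Cd8b1. Cd8a had 0.620, 0.224, 0.334, 0.224 and 0.0334 TPM in the control mice and 0.660, 0.189, 0.205, 0.128 and 0.457 TPM in the IF mice. It had 0.266, 0.473, 1.24, 0.520 and 0.889 TPM in the PBMC mice and 1.50, 0.483, 0.282, 0.132 and 0.140 TPM in the PBMC-hCG mice. Each PBMC mouse was above the median of the IF mice, 2 of the 5 were above the highest IF mouse, and in the PBMC-hCG group replicate 1 was about 3 times the next mouse. In the main fit Cd8a thus had the largest log2 fold change of the 7 tested genes in PBMC versus IF, 0.87, but with a standard error of 0.52 and a 95% interval of -0.23 to 1.96 (adjusted p = 0.776). Over 31 alternatives this log2 fold change ran from 0.32 to 1.11, so its size depended on the settings, and the rank is that of the main fit only. For PBMC-hCG versus IF it was 0.24 (95% interval -0.85 to 1.34), and without PBMC-hCG replicate 1 it was -0.21.

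Cd8b1 had 1.53, 0.106, 0.427, 0.0926 and 0 TPM in the control mice and 0.777, 0.221, 0.713, 0.207 and 0.305 TPM in the IF mice. It had 0.652, 0.533, 1.32, 0.711 and 0.859 TPM in the PBMC mice and 1.37, 0, 1.11, 0.364 and 0.550 TPM in the PBMC-hCG mice. The PBMC mice each lay above the IF median and none was near 0, while the control and PBMC-hCG groups ran from 0 to above 1 TPM. The mean log2 difference in PBMC versus IF was 0.84 (exact permutation p = 0.0873, two-sided and unadjusted, where 0.00794 is the smallest that 252 arrangements can give). Over 22 alternatives this difference ran from 0.33 to 1.05 (exact permutation p from 0.0556 to 0.167). The PBMC-hCG versus IF difference was 0.18 (exact permutation p = 0.841). With both recipient groups together it was 0.51 (exact permutation p = 0.389 over 3003 arrangements), and without PBMC-hCG replicate 2, which is listed at 0, it was 0.82 (exact permutation p = 0.0390). Without PBMC-hCG replicate 1 or 3 the PBMC-hCG versus IF difference of Cd8b1 was -0.17 or -0.10, so its direction rested on these mice.

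Foxp3 encodes the transcription factor that sets the fate of regulatory T cells. The control mice had 0, 0, 0.125, 0 and 0 TPM and the IF mice 0.151, 0.0902, 0, 0.0670 and 0.157 TPM. The PBMC mice had 0.107, 0, 0.112, 0.130 and 0.0922 TPM and the PBMC-hCG mice 0.165, 0.0946, 0.0263, 0.0338 and 0.0671 TPM. Foxp3 was thus above 0 in 1 of 5 control mice, in 4 of 5 IF mice, in 4 of 5 PBMC mice and in 5 of 5 PBMC-hCG mice, at levels where 0 may only mean that no read was sampled. The mean log2 difference in IF versus control was 0.64 (exact permutation p = 0.127), a size set by the pseudocount because 4 of 5 control mice are at 0: it was 0.092 with a pseudocount of 1 and 2.12 with 0.01. It passed 0.05 without control replicate 3 (0.87, exact permutation p = 0.0476) or without IF replicate 3 (0.86, exact permutation p = 0.0317). Between recipients and IF mice the differences were small, at -0.02 for PBMC and -0.10 for PBMC-hCG (exact permutation p = 0.952 and 0.802). The sign of these 2 differences turned without IF replicate 1 (0.10 and 0.02) or IF replicate 5 (0.11 and 0.02), for PBMC also without PBMC replicate 2 (0.20) and for PBMC-hCG also without PBMC-hCG replicate 3 (0.01).

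Il2ra encodes CD25, the alpha chain that gives the interleukin-2 receptor its high affinity, and is carried by regulatory and by newly activated T cells. It stood at 1.03, 1.05, 1.17, 0.830 and 0.669 TPM in the control mice and at 1.05, 0.643, 1.04, 0.661 and 0.591 TPM in the IF mice. The PBMC mice had 1.41, 1.0, 1.06, 0.921 and 0.564 TPM, and the PBMC-hCG mice had 0.786, 1.67, 1.54, 1.38 and 1.08 TPM. The IF group was the lowest on average, and 4 of the 5 PBMC-hCG mice lay above the highest IF mouse, with replicate 1 inside the IF range. The level was 0.797 ± 0.229 TPM in the IF group and 1.29 ± 0.359 TPM in the PBMC-hCG group. The log2 fold change of 0.63 (standard error 0.23, 95% interval 0.14 to 1.12) had a raw p under 0.05 and an adjusted p of 0.0715 in limma. Il2ra passed the threshold without IF replicate 3 (adjusted p = 0.0381), PBMC replicate 5 (0.0457) or PBMC-hCG replicate 1 (0.0265), and in 6 of the 32 alternatives in all, over which the adjusted p ran from 0.00406 to 0.196. In PBMC versus IF the log2 fold change was 0.27 (95% interval -0.22 to 0.76), and between PBMC-hCG and PBMC it was 0.36 (-0.13 to 0.85, adjusted p = 0.413). With both recipient groups together it was 0.45 (raw p under 0.05, adjusted p = 0.188, range 0.0138 to 0.500 over the alternatives), and 6 of the 10 recipients lay above the highest IF mouse.

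Ctla4 encodes a receptor that restrains T cell activation and is high in regulatory T cells. It had 0.279, 0.139, 0.161, 0.233 and 0.733 TPM in the control mice and 0.823, 0.197, 0.599, 0.204 and 0.989 TPM in the IF mice. It had 0.159, 0.390, 0.644, 0.203 and 0.401 TPM in the PBMC mice and 0.310, 0.230, 0.0873, 0.315 and 0 TPM in the PBMC-hCG mice. The IF mice fell into 3 high and 2 low values, and the PBMC-hCG mice lay low, with 2 of the 5 below the lowest IF mouse. The mean log2 difference was 0.65 in IF versus control (exact permutation p = 0.246), -0.43 in PBMC versus IF (exact permutation p = 0.389) and -1.18 in PBMC-hCG versus IF (exact permutation p = 0.0794). Over 22 alternatives these 3 differences of Ctla4 kept their sign but ran from 0.24 to 0.95, from -0.67 to -0.18 and from -1.97 to -0.37, and none passed 0.05. Il2ra and Ctla4, both genes of regulatory T cells, thus differed in opposite directions between PBMC-hCG and IF mice, and neither passed its test.

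Ratios between members were compared to ask whether the type of T cell differed at a given amount. Because Cd4 is also made by some macrophages and dendritic cells, the ratio of Cd8a to Cd4 cannot show this for T cells alone. The log2 ratio of Foxp3 to Cd3e was -3.69 ± 0.403 in IF, -4.01 ± 0.746 in PBMC and -3.53 ± 0.362 in PBMC-hCG mice. It is not given for the control mice, where Foxp3 is at 0 in 4 of 5 and the ratio would only be the pseudocount over Cd3e. In the IF, PBMC and PBMC-hCG mice mean Foxp3 (0.0930, 0.0883 and 0.0774 TPM) was also below the pseudocount of 0.1. The ratios given therefore rest in large part on the pseudocount and are not ratios of the measured levels. The log2 ratio of Cd8a to Cd4 was -2.74 ± 0.938, -2.99 ± 0.761, -2.07 ± 0.671 and -2.98 ± 0.949 in the control, IF, PBMC and PBMC-hCG mice. The PBMC mice had the highest mean ratio of Cd8a to Cd4, 0.92 above the IF mice (exact permutation p = 0.0873, 0.635 after adjustment over the 10 ratio tests) and 0.91 above the PBMC-hCG mice (log2 difference of PBMC-hCG minus PBMC -0.91, exact permutation p = 0.127, adjusted 0.635). Over 22 alternatives these differences ran from 0.37 to 1.22 for PBMC minus IF and from -1.26 to -0.42 for PBMC-hCG minus PBMC. None of the 10 exact ratio tests had a raw p under 0.05, and the lowest adjusted p was 0.635. The 10 include Foxp3 to Cd3e in IF versus control (log2 difference 0.31, exact permutation p = 0.556), which rests on the pseudocount and decides nothing. The size of the other Foxp3 to Cd3e differences depends on the pseudocount as well.

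**Figure D2:**
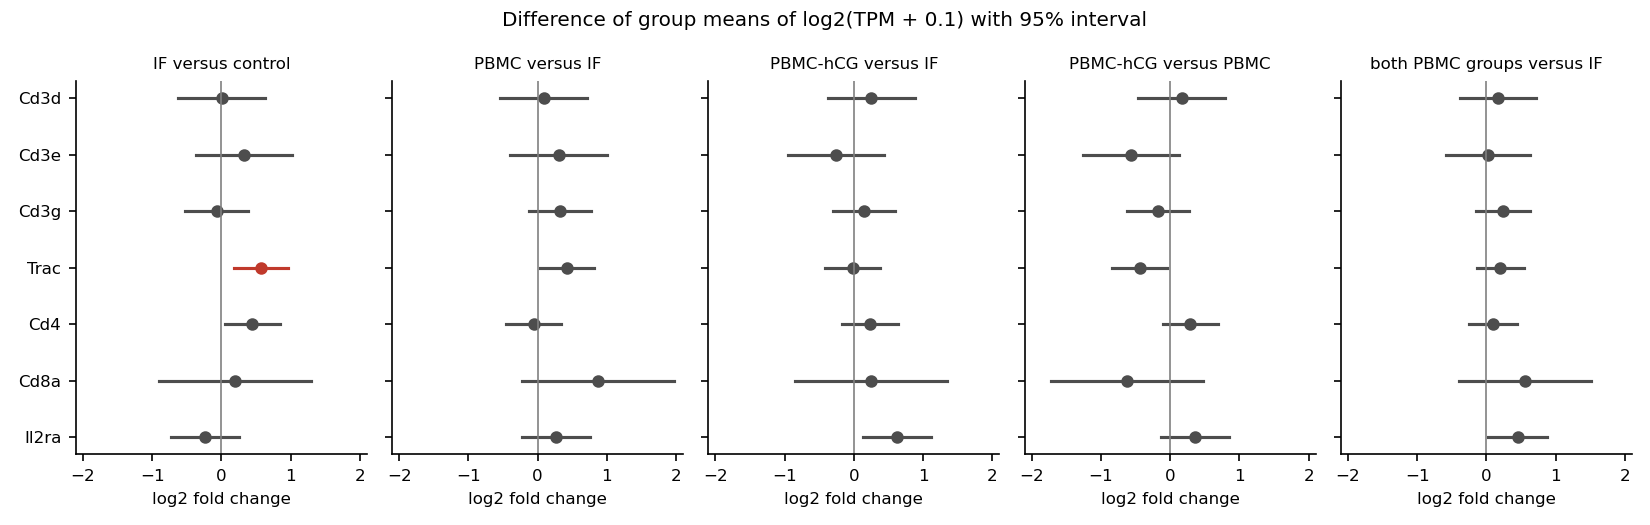
Log2 fold change on the log2(TPM + 0.1) scale (horizontal axis) of the 7 tested genes in the 5 comparisons, with the 95% interval of limma as bars and red for an adjusted p under 0.05. Trac in IF versus control (0.57) is the single red point.

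The 24 genes of T cell receptor signaling on a separate list include the kinases Lck and Zap70 that act directly under CD3. In IF versus control 5 of the 21 tested genes rose and none fell, with a median log2 fold change of 0.30 over the 21. For this list and those below, the shares over all 18706 genes to hold beside such counts are 21.9% in IF versus control (13.4% upward and 8.53% downward) and 13.6% in PBMC-hCG versus IF. For groups that do not overlap, the shares over all genes are 12.8% in IF versus control, 1.01% in PBMC versus IF, 7.24% in PBMC-hCG versus IF and 3.46% in PBMC-hCG versus PBMC. Fyn, a kinase of the Src family, rose from 48.8 ± 5.40 to 76.5 ± 8.00 TPM (log2 fold change 0.65, limma adjusted p = 6.03e-06, all 5 IF mice above the control mice). Thy1, a surface protein of T cells and of fibroblasts, rose by 0.63 (adjusted p = 0.00237), and Ptprc, the CD45 antigen of all white blood cells, by 0.39 (adjusted p = 0.0294), in both cases with all 5 IF mice above the control mice. Cd247, the zeta chain of the receptor complex, rose by 0.51 (adjusted p = 0.0274, 4 of 5 mice above the highest control), from 3.17 ± 0.368 to 4.60 ± 0.864 TPM. Rasgrp1, which activates Ras under the receptor, rose by 0.40 (adjusted p = 0.0338, 3 of 5 mice). Fyn and Thy1 were called in all 32 alternatives. Cd247 lost its call without control replicate 5, IF replicate 3 or IF replicate 5 (adjusted p up to 0.0735), Ptprc without control replicate 2, 4 or 5 or IF replicate 3 or 5 (up to 0.0795), and Rasgrp1 without control replicate 1, 3 or 4 or IF replicate 2, 3 or 5 (up to 0.0945). With the other settings included, Cd247 was called in 26 of the 32 alternatives (adjusted p up to 0.0750), Ptprc in 25 (up to 0.0949) and Rasgrp1 in 24 (up to 0.129). Fyn and Thy1 are widely expressed outside T cells, and the list was 358 ± 38.0 TPM in sum in the control mice, of which Thy1 made up 212 ± 42.5 TPM.

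The sum of that list was 524 ± 44.0 TPM in the IF mice, 510 ± 9.35 TPM in the PBMC mice and 489 ± 33.8 TPM in the PBMC-hCG mice. In the other 4 comparisons limma called 0 of the 21 genes, with 3, 1, 2 and 2 genes at a raw p under 0.05 in PBMC versus IF, PBMC-hCG versus IF, PBMC-hCG versus PBMC and both groups versus IF. The medians were -0.02, 0.13, 0.09 and 0.03. All 5 PBMC mice lay above all 5 IF mice for 2 of the 21 genes, as they did for 0.577% of all genes. They were Nfatc2, a factor activated by receptor signals (6.27 ± 0.791 TPM in IF and 8.93 ± 0.887 TPM in PBMC mice, log2 fold change 0.51, adjusted p = 0.351), and Ubash3a, a regulator of receptor signals (0.882 ± 0.133 and 1.20 ± 0.178 TPM, 0.41, adjusted p = 0.716). In the T cell lists that follow, PBMC and IF mice were apart for 1 of 13 tested regulatory T cell genes, Tnfrsf9 (0.19, adjusted p = 0.821, higher in PBMC), 1 of 9 lineage genes, Bcl6 (-0.33, adjusted p = 0.623, lower in PBMC), and 1 of 14 partner genes, Stat5a (-0.44, adjusted p = 0.433, lower in PBMC), and for none of the 6 constant segments, 10 naive and 9 gamma delta and resident genes, against 1.01% of all genes (0.577% higher and 0.433% lower). Such separation was not confined to T cell lists. Among the tissue lists below, 1 of 6 stromal and 1 of 5 endothelial genes were apart, both higher in PBMC. None of the epithelial or myometrial genes was. Lck, the kinase that phosphorylates CD3, stood at 14.0 ± 0.675, 17.5 ± 3.19, 15.7 ± 3.45 and 19.8 ± 3.11 TPM in the 4 groups and was called in no comparison. Its log2 fold change was 0.30 in IF versus control (adjusted p = 0.159) and 0.35 in PBMC-hCG versus PBMC (adjusted p = 0.289).

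Lineage factors and cytokines of T cells made up 14 genes, of which 9 were tested. Il2, the growth factor of activated T cells, was listed at 0 in all 20 libraries, and Ifng, Il4, Il17a and Il21 were at 0 in some, while Zbtb7b was the most abundant at 33.7 TPM over all mice. Between IF and control mice 2 of the 9 rose and none fell, with a median of 0.12. Bcl6, a repressor that directs follicular helper T cells and is also active in uterine cells, rose from 14.7 ± 1.44 to 24.2 ± 1.81 TPM (log2 fold change 0.72, limma adjusted p = 2.64e-05, all 5 mice above the controls). Eomes, a factor of natural killer and memory CD8 T cells, rose by 0.56 (adjusted p = 0.0177, all 5 mice above the controls). Both were called in all 32 alternatives. In PBMC-hCG versus IF 1 of the 9 rose, Tox (0.77, adjusted p = 0.0460, 4 of 5 mice above the highest IF mouse), and 1 fell, Bcl6 (-0.35, adjusted p = 0.0316, 4 of 5 mice below the lowest). Limma called 0 of the 9 in PBMC versus IF, PBMC-hCG versus PBMC and both groups versus IF, with 2, 1 and 2 genes at a raw p under 0.05.

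A further list held 16 genes known from regulatory T cells, 13 of them tested. From control to IF mice 3 rose and 1 fell, with a median of 0.30. Lrrc32, which holds latent TGF-beta on activated regulatory T cells and is also made by endothelium, rose from 21.9 ± 2.95 to 60.9 ± 21.0 TPM (log2 fold change 1.43, limma adjusted p = 7.97e-05). Prdm1, a factor of effector lymphocytes, rose by 0.95 (adjusted p = 4.54e-05), and Entpd1, the ectoenzyme CD39, by 0.51 (adjusted p = 0.000518). Nt5e, the ectoenzyme CD73 that acts after CD39 to make adenosine, fell from 34.5 ± 5.0 to 14.9 ± 5.89 TPM (-1.28, adjusted p = 0.000803). In all 4 genes the IF and control mice did not overlap, and all 4 were called in all 32 alternatives. Each of them is also expressed by uterine or vascular cells, and which cells these differences came from was not tested.

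For PBMC-hCG versus IF 2 of these 13 genes rose and 2 fell. Ikzf2, the factor Helios, rose from 2.07 ± 0.680 to 3.68 ± 0.656 TPM (0.84, limma adjusted p = 0.0313), and Nt5e rose to 26.0 ± 4.13 TPM (0.86, adjusted p = 0.0334), each with 4 of 5 mice above the highest IF mouse. Lrrc32 fell to 33.2 ± 8.90 TPM (-0.85, adjusted p = 0.0287), and Gpr83, a receptor known from regulatory T cells, fell from 6.06 ± 5.14 to 1.16 ± 1.26 TPM (-2.13, adjusted p = 0.0412), each with 4 of 5 mice below the lowest IF mouse. The median of the 13 was -0.12. Limma called 0 of the 13 in PBMC versus IF, PBMC-hCG versus PBMC and both groups versus IF, with 1, 3 and 3 genes at a raw p under 0.05. The rule of the study was met by 2 of the 13 in IF versus control. It was met by 1 each in PBMC versus IF, PBMC-hCG versus IF and both groups versus IF. Of all genes 4.03%, 0.438%, 2.31% and 0.738% met it in these 4 comparisons.

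Genes of the interleukin-2 receptor, of co-stimulation and of checkpoints numbered 16, with 14 tested. For IF versus control 5 rose and 1 fell. Stat5a, which carries the interleukin-2 signal, rose by 0.84 (limma adjusted p = 2.60e-05, all 5 mice), and Cd80, a ligand of CTLA4 and CD28, by 0.72 (adjusted p = 0.0119, 4 of 5 mice). Il2rb and Il2rg, the beta and gamma chains that pair with Il2ra, rose by 0.44 (adjusted p = 0.0315) and 0.25 (adjusted p = 0.0408), each in 4 of 5 mice, and Stat5b by 0.26 (adjusted p = 0.0462, 3 of 5 mice). Il15ra, which presents interleukin-15 to cells with the beta and gamma chains, fell by 1.40 on the log2 scale (adjusted p = 1.15e-05, all 5 mice below the controls). Stat5a, Cd80 and Il15ra were called in all 32 alternatives. Il2rb lost its call without control replicate 1, 2 or 4 or IF replicate 3 or 5 (adjusted p up to 0.0930), Il2rg without control replicate 2, 4 or 5, IF replicate 1, 2, 3 or 5 or PBMC replicate 3 (up to 0.111), and Stat5b in 16 of the 20 fits that left out 1 mouse (up to 0.127), all but those without control replicate 2, IF replicate 5, PBMC replicate 1 or PBMC replicate 5. Il2rb was called in 23, Il2rg in 20 and Stat5b in 11 of the 32 alternatives. At 58.7 ± 13.6 TPM in the IF mice, Il2rb was far above Il2ra, and it is high in natural killer cells.

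Between PBMC-hCG and IF mice 2 of these 14 genes rose and 1 fell. Cd274, the checkpoint ligand PD-L1, rose from 3.15 ± 1.01 to 8.08 ± 2.92 TPM (1.31, limma adjusted p = 0.0307, all 5 mice above the IF mice). Il15ra rose by 0.62 (adjusted p = 0.0325, 4 of 5 mice), and Stat5a fell by 0.56 on the log2 scale (adjusted p = 0.0258, 4 of 5 mice). Limma called 0 of the 14 in PBMC versus IF, PBMC-hCG versus PBMC and both groups versus IF, with 2, 3 and 3 genes at a raw p under 0.05. By the rule of the study 1 of the 14 passed in IF versus control and 1 in PBMC-hCG versus IF, against 4.03% and 2.31% of all genes. The medians in the 5 comparisons were 0.23, 0.07, 0.10, 0.04 and 0.04.

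Blood lymphocytes are rich in genes of naive and recirculating cells, so these 10 genes, all tested and with Klf2 the most abundant at 65.6 TPM over all mice, were set apart. Between IF and control mice 3 rose, none fell, and the median was 0.60. S1pr1, the receptor that lets lymphocytes leave tissue, rose by 0.84 (limma adjusted p = 0.000365), and Tcf7, a factor of naive T cells, by 0.76 (adjusted p = 0.000155), each in all 5 mice and called in all 32 alternatives. Which cells the rises in this list came from was not tested. In the same comparison no CD3 gene was called, and all 5 endothelial genes given below rose. Cxcr4, a chemokine receptor, rose by 0.72 (adjusted p = 0.0435, 3 of 5 mice) but was called in 14 of the 32 alternatives, and its call was lost in 13 of the 20 fits that left out 1 mouse (adjusted p up to 0.121), those without control replicate 1, 3, 4 or 5, IF replicate 1, 2, 3 or 5, PBMC replicate 2, 3 or 4, or PBMC-hCG replicate 2 or 3. In the recipients limma called 0 of the 10, with 0, 2, 0 and 1 at a raw p under 0.05 in PBMC versus IF, PBMC-hCG versus IF, PBMC-hCG versus PBMC and both groups versus IF, and with medians of 0.07, -0.09, -0.05 and -0.03. Ccr7, the lymph node homing receptor of naive cells, stood at 0.307 ± 0.0992, 0.565 ± 0.188, 0.668 ± 0.224 and 0.461 ± 0.263 TPM in the 4 groups. In PBMC versus IF the log2 fold change of Ccr7 was 0.21 (adjusted p = 0.910).

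Of 11 genes of gamma-delta and tissue-resident T cells, 10 were in the table and 9 were tested. From control to IF mice 1 rose, Sox13 (0.53, limma adjusted p = 0.000154, all 5 mice, called in all 32 alternatives), a factor of gamma-delta T cells that other uterine cells express too, at 37.8 ± 4.88 TPM in the control and 54.3 ± 5.62 TPM in the IF mice. Limma called 0 of the 9 in the other comparisons, with 1, 2, 5 and 2 at a raw p under 0.05 in PBMC versus IF, PBMC-hCG versus IF, PBMC-hCG versus PBMC and both groups versus IF. In PBMC-hCG versus PBMC 1 of the 9 met the rule of the study, against 0.893% of all genes. The medians in the 5 comparisons were 0.23, 0.25, -0.13, -0.29 and 0.13. The gene with the raw p in PBMC versus IF was Cxcr6, a chemokine receptor of tissue-resident lymphocytes (log2 fold change 0.70, adjusted p = 0.662). It was chosen for mention after its value was seen.

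The calls of listed genes in PBMC-hCG versus IF were all lost when certain single mice were left out. Of the 15 listed genes called there, 0 kept the call without IF replicate 2, 4 or 5 or without PBMC-hCG replicate 2, 3, 4 or 5. Without any 1 of the other mice, 11 to 15 of the 15 kept it. Tox was also lost without control replicate 1, 3 or 4 or PBMC replicate 2 or 3 (adjusted p up to 0.147), and Gpr83 without PBMC replicate 3 (up to 0.135). Hoxa10 was also lost without control replicate 1, 3 or 4, IF replicate 1 or PBMC replicate 1, 2 or 3 (up to 0.150), and Pdgfra without IF replicate 1 (up to 0.125). The red cell genes Hba-a2 and Hbb-bs, lost in more fits than these, are given with their list. Over all tested genes the number called fell from 2544 to 8, 14 and 0 without those IF mice and to 1, 0, 18 and 34 without those PBMC-hCG mice, while it rose to 4071 without control replicate 2, to 5062 without IF replicate 3 and to 4161 without PBMC-hCG replicate 1. For IF versus control 39 listed genes beside Trac were called, and the number that kept the call when 1 mouse was left out ran from 25, without IF replicate 3, to 39, without PBMC replicate 5. The all-gene number there stayed between 3331 and 5020.

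Markers of other cells of blood were examined in the same mice. The B cell list held 11 genes, 5 of them tested and none called in any comparison by limma, with 0, 0, 2, 2 and 0 genes at a raw p under 0.05 in the 5 comparisons. The B cell antigen Ms4a1 lay between 0 and 0.468 TPM and was at 0 in 2 control, 1 IF and 3 PBMC mice, and the B cell factor Pax5 was also at 0 in some mice. Ighm, the IgM heavy chain and the most abundant gene of the list, stood at 31.6 ± 7.14, 36.9 ± 6.73, 31.0 ± 7.45 and 52.3 ± 10.4 TPM in the 4 groups. All 5 PBMC-hCG mice lay above the PBMC mice for Ighm (0.77, adjusted p = 0.264), the 1 of the 5 tested genes of its list whose groups did not overlap, against 3.46% of all genes (1.99% higher in PBMC-hCG). Ighm was named by rule as the most abundant gene, but this comparison was picked out after its values were seen. The list summed to 40.8 ± 7.83, 45.5 ± 6.81, 39.0 ± 7.52 and 61.3 ± 12.2 TPM.

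All 11 natural killer and cytotoxic markers were tested. Between IF and control mice 2 rose, Eomes as above and Klre1, a lectin-like receptor (0.50, limma adjusted p = 0.0426, 4 of 5 mice, called in 16 of 32 alternatives), with a median of 0.49. The call of Klre1 was lost without control replicate 1, 3, 4 or 5, IF replicate 2, 3 or 5, PBMC replicate 2, or PBMC-hCG replicate 3 or 5 (adjusted p up to 0.121). Limma called 0 of the 11 in the other comparisons, with 0, 1, 2 and 0 at a raw p under 0.05. The list summed to 178 ± 31.7, 215 ± 35.7, 211 ± 28.3 and 244 ± 22.5 TPM in the 4 groups, about 8 to 10 times the sum of the 10 T cell genes, and Nkg7 was its most abundant gene, at 44.3 TPM over all mice. The 10 T cell genes summed to 19.5 ± 4.05, 22.5 ± 6.27, 26.9 ± 4.79 and 23.9 ± 5.02 TPM.

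The 11 monocyte and macrophage markers were all tested and summed to 840 ± 70.0, 890 ± 96.3, 884 ± 38.6 and 947 ± 136 TPM, most of it Lyz2, lysozyme (563 TPM over all mice). From control to IF mice 2 rose, Csf1r (0.32, limma adjusted p = 0.0436, 3 of 5 mice) and Adgre1 (0.23, adjusted p = 0.0459, 4 of 5 mice), which were called in 11 and 9 of the 32 alternatives and were lost in 13 and 15 of the 20 fits without 1 mouse (adjusted p up to 0.121 and 0.117). Csf1r kept its call without control replicate 2, IF replicate 2 or 4, PBMC replicate 5 or PBMC-hCG replicate 2, 3 or 5, and Adgre1 without IF replicate 1 or 4, PBMC replicate 5 or PBMC-hCG replicate 2 or 5. Limma called 0 of the 11 in the other comparisons, with 0, 0, 3 and 0 at a raw p under 0.05. Of 8 dendritic cell markers 1 rose in IF versus control, Zbtb46 (0.23, adjusted p = 0.0491, 3 of 5 mice, called in 10 of 32 alternatives and lost in 14 of the 20 fits without 1 mouse, up to 0.117, all but those without control replicate 1, IF replicate 1 or 2 or PBMC replicate 1, 3 or 5), and 0 were called by limma in the other comparisons, with 0, 1, 0 and 1 at a raw p under 0.05. Itgax, the most abundant dendritic cell gene, had 11.7 TPM. Markers of type 2 innate lymphoid and mast cells (8 of 9 tested) and of lymphoid stroma (3 of 7 tested) had 0 calls by limma in any comparison, with at most 2 and 1 genes at a raw p under 0.05 and with Kit (25.7 TPM) and Ccl21a (359 TPM) as the most abundant. Cr2, Glycam1, Madcam1 and Ccl19 of the lymphoid stroma list were at 0 in some mice.

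Of 6 red cell genes, 5 were tested, and 2 fell in PBMC-hCG versus IF, Hba-a2 (-1.08, limma adjusted p = 0.0489) and Hbb-bs (-1.04, adjusted p = 0.0493), each with 4 of 5 mice below the lowest IF mouse. They were called in 12 and 11 of the 32 alternatives, and both were lost in 15 of the 20 fits without 1 mouse (adjusted p up to 0.130 and 0.132), all but those without control replicate 2, IF replicate 3 or PBMC replicate 2, 3 or 5. The list summed to 929 ± 318, 1078 ± 452, 997 ± 483 and 521 ± 224 TPM. In PBMC-hCG versus IF 4 of the 5 met the rule of the study, against 2.31% of all genes. In the other 4 comparisons limma called 0 of the 5, with 0, 0, 4 and 0 at a raw p under 0.05. Blood in the tissue could carry lymphocyte RNA as well, and its part in the values of the T cell genes was not tested.

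Tissue markers also differed between the groups. For IF versus control all 5 endothelial genes rose, Kdr by 0.59 (limma adjusted p = 0.000542), Cdh5 by 0.45 (0.00892), Pecam1 by 0.39 (4.70e-05), Tie1 by 0.34 (0.00657) and Emcn by 0.24 (0.0192), with 4 of 5 mice above the highest control for Emcn and 5 of 5 for the others. Emcn lost its call without control replicate 5 (adjusted p = 0.0523) and was called in 28 of the 32 alternatives (adjusted p up to 0.105), and Cdh5 was called in 31, all but the fit of only the groups compared (0.0501). The endothelial sum was 414 ± 55.1, 536 ± 18.7, 559 ± 33.2 and 601 ± 30.4 TPM. Of the 6 epithelial genes, Cdh1 (0.35), Epcam (0.35), Krt18 (0.42) and Krt8 (0.38) rose, with adjusted p = 0.00682, 0.0174, 0.0440 and 0.0499, and Foxa2, a gland factor, fell (-0.89, adjusted p = 0.00366). Epcam was called in 29 of the 32 alternatives (adjusted p up to 0.0609), Krt18 in 12 (up to 0.124) and Krt8 in 9 (up to 0.136). Krt18 and Krt8 were each lost in 14 of the 20 fits without 1 mouse (adjusted p up to 0.112 and 0.136). Krt18 kept its call without control replicate 2, IF replicate 5, PBMC replicate 3 or 5 or PBMC-hCG replicate 1 or 2, and Krt8 without control replicate 2, IF replicate 2 or 5, PBMC replicate 5 or PBMC-hCG replicate 1 or 2. Of the 6 stromal genes Dcn rose (0.84, adjusted p = 1.98e-06) and Hoxa10 and Hoxa11 fell (-0.92 and -1.09, adjusted p = 8.34e-05 and 3.96e-06), all 3 with no overlap between the groups. By the rule of the study 1 of these 6 passed, against 4.03% of all genes. Of the 6 myometrial genes Acta2 fell (-0.42, adjusted p = 0.0367, 1 of 5 mice below the lowest control), a call lost without control replicate 1, 3, 4 or 5 or IF replicate 1, 2, 3 or 5 (adjusted p up to 0.0987) and kept in 21 of the 32 alternatives (up to 0.126). The most abundant genes of these 3 lists were Krt18 (337 TPM), Dcn (2935 TPM) and Tagln (2317 TPM). For PBMC-hCG versus IF 1 epithelial gene (Krt8, 0.45, adjusted p = 0.0392), 2 stromal genes (Pdgfra, 0.40, adjusted p = 0.0403, and Hoxa10, 0.42, adjusted p = 0.0471) and 1 endothelial gene (Emcn, 0.29, adjusted p = 0.0287) rose. For PBMC versus IF limma called 0 genes of these 4 lists, with 0, 1, 0 and 1 at a raw p under 0.05 for epithelium, stroma, myometrium and endothelium. The 4 adipose genes were tested in none of the comparisons, since each was at 0 in some library, and of the 6 reference genes, led by Rplp0 at 3219 TPM, limma called 0 in any comparison, with 2 at a raw p under 0.05 in PBMC-hCG versus IF and 1 in PBMC-hCG versus PBMC. The part of these shifts in tissue makeup in the values of the T cell genes was not tested.

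**Figure D3:**
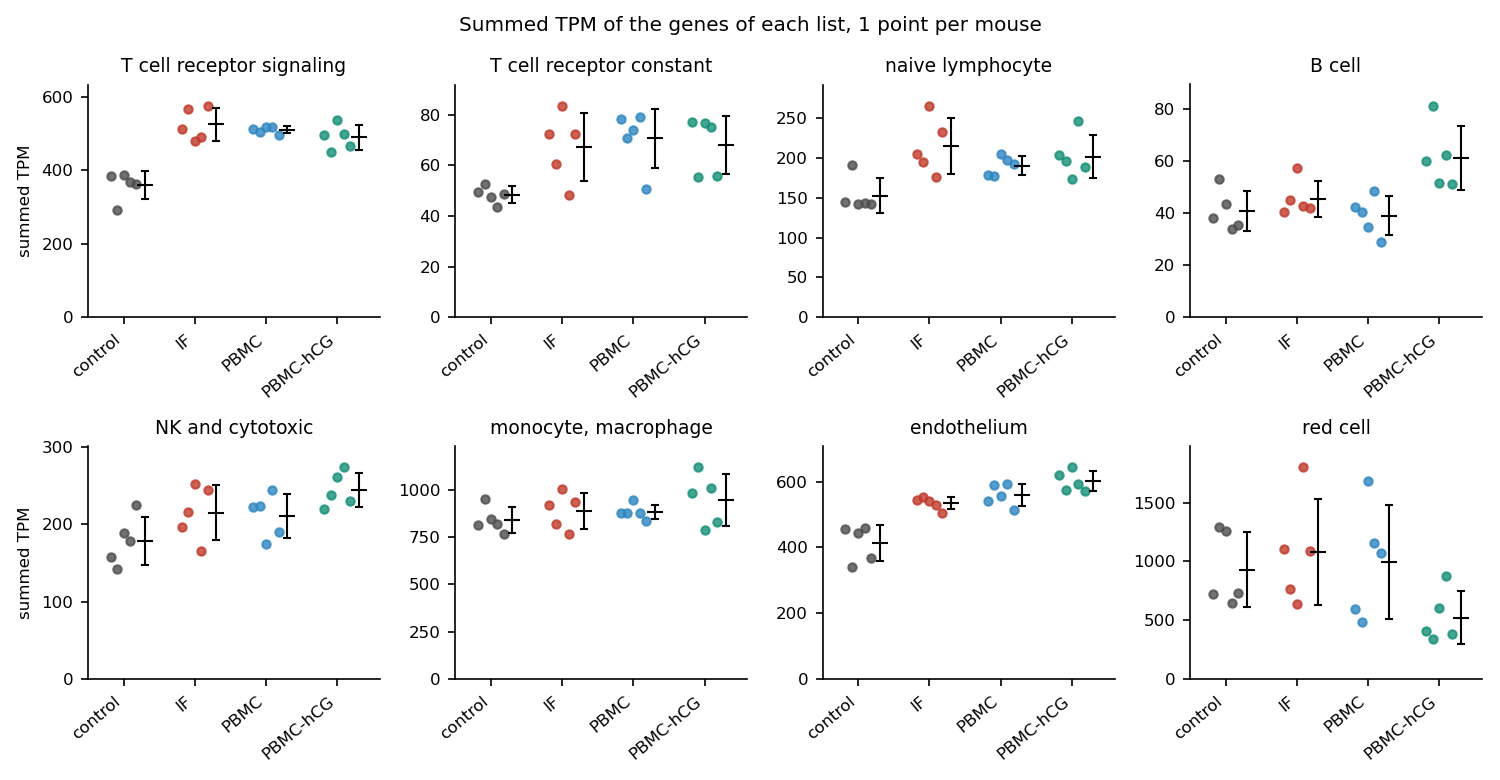
Summed TPM of the genes of 8 lists (vertical axes, linear) in 5 control, 5 IF, 5 PBMC and 5 PBMC-hCG mice, with 1 point per mouse and the group mean ± SD beside the points. The T cell receptor signaling, constant segment and naive lymphocyte lists are lower on average in the control mice than in the other groups, and the IF and recipient groups overlap in these 3 lists. Lists are named after a cell type or function, and which cells the RNA came from was not tested.

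Across the 20 mice the CD3 genes varied together, with Pearson's r of 0.672 for Cd3d and Cd3e, 0.679 for Cd3d and Cd3g and 0.635 for Cd3e and Cd3g on the log2 scale (n = 20). After subtraction of group means the values were 0.787, 0.713 and 0.638, so the relation was also present within groups. Cd8a followed Cd3e (r = 0.778 over 20 mice, 0.766 within groups) more closely than it followed its partner Cd8b1 (0.615 and 0.528). With Cd3d and Cd3g the r of Cd8a over 20 mice was lower, at 0.554 and 0.440. Cd4 followed the CD3 genes little, with r = 0.328 for Cd3d, 0.110 for Cd3e and 0.148 for Cd3g. Trac had r = 0.293 with Cd3d, 0.542 with Cd3e, 0.432 with Cd3g and 0.607 with Cd8a, and Ctla4 with Trac had 0.468, or 0.743 within groups. Foxp3 with Il2ra and Ctla4 had r = -0.11 and 0.0947, and Il2ra with Ctla4 had -0.381, or -0.141 within groups. Because Foxp3 was listed at 0 in 6 of the 20 libraries, its low r values cannot show whether it varied with Il2ra and Ctla4. Among 15765 other tested genes with a mean of at least 1 TPM, the mean log2 value of the 3 CD3 genes was followed most closely over the 20 mice by Grap2 (r = 0.781), Wdfy4 (0.768), Kmo (0.737), Ciita (0.734), Sirpb1b (0.729), Retnla (0.727), H2-Ob (0.721) and Krtap17-1 (0.720). These correlations share the libraries and their depth and are given as a description.

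In mouse build GRCm38.p6 the CD3 genes lie side by side on chromosome 9, Cd3g (NCBI gene 12502) at chr9:44969572-44980431, Cd3d (12500) at chr9:44981769-44987052 and Cd3e (12501) at chr9:44998735-45009663. Cd3g and Cd3d are 1337 bases apart, Cd3d and Cd3e 11682 bases, and all 3 lie within 40092 bases. Cd8b1 (12526, chr6:71322788-71337492) and Cd8a (12525, chr6:71373427-71379171) are neighbours as well, 35934 bases apart. Cd4 (12504) lies at chr6:124864693-124888247, Ctla4 (12477) at chr1:60909025-60915832, Il2ra (16184) at chr2:11642792-11693194, Foxp3 (20371) at chrX:7579676-7595243 and Trac (100101484) at chr14:54220521-54224198. Foxp3 overlaps Flicr and Ccdc22, Il2ra overlaps Gm39760 and Trac lies within Tcra, and, although the libraries were made with a stranded kit, whether reads were counted by strand is not stated, so reads of these neighbours may enter their values.

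The promoters of the 3 CD3 genes are printed because these genes sit in a single cluster and varied together. Each runs from 250 bases before to 50 bases after a start annotated in RefSeq (GRCm38.p6, matched by symbol), which for Cd3d and Cd3e lies inside the gene bounds given above, and is given on the strand of the gene: chr9:44980382-44980681 (minus) for Cd3g, chr9:44981536-44981835 (plus) for Cd3d and chr9:45009562-45009861 (minus) for Cd3e. Capitals mark matches, on either strand, to short motifs of factors that act in T cells. The motif TGTGGT was searched for RUNX factors and CAGNTG, where N is any base, for the E-box proteins. For the GATA factors the motif AGATAA was used, and AGGAAG stood for the ETS family. The STAT motif was TTCNNNGAA. Cd3g has 3 E-box matches and 1 GATA match, Cd3d has 1 E-box, 2 ETS and 1 STAT match, of which the STAT match overlaps an ETS match, and Cd3e has 1 E-box and 2 ETS matches. None of the 3 has a RUNX match. Such short motifs are common: of 32851 promoters of this length 51.4% hold an E-box match, 35.4% an ETS, 16.8% a RUNX, 11.2% a GATA and 8.30% a STAT match.
Cd3g: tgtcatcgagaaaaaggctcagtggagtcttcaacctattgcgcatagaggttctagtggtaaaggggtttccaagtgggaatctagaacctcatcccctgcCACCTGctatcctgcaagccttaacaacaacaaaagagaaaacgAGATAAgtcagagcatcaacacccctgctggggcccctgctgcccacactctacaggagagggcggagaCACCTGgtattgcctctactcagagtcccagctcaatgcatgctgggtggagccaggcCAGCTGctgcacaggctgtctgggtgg
Cd3d: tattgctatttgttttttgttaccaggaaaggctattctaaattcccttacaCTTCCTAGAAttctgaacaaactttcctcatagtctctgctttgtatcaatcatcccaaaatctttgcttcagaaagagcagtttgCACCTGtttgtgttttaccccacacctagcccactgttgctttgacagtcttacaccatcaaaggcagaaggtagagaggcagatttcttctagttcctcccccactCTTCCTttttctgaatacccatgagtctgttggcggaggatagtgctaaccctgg
Cd3e: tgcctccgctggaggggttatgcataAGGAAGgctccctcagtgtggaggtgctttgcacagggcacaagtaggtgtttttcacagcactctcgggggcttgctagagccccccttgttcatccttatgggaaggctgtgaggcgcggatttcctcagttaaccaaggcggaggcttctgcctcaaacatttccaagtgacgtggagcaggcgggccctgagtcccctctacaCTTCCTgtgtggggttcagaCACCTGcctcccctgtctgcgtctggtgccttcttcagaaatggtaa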

How the data were processed

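Uterine polyA RNA of 20 mice, 5 per group, was measured, and the authors deposited TPM per gene. According to the submitters' processing notes, reads were trimmed with Trimmomatic, aligned to mm10 with HISAT2 and quantified with StringTie, with versions not given. The 10 genes and the lists beside them were chosen with earlier results of these data known. Genes above 0 TPM in all 20 libraries (18706) were compared on log2(TPM + 0.1). One limma model (version 3.58.1, R 4.3.3) held all 4 groups and let the variance follow the level. Benjamini-Hochberg adjustment was made per comparison, and an adjusted p under 0.05 was called. Of each list, called genes (at most 6 per comparison) and the most abundant gene were named by rule, and Lck, Nfatc2, Ubash3a, Tnfrsf9, Ccr7, Cxcr6, Ms4a1, Pax5, the uncalled receptor constant genes and the variable segments were added after the values were seen. Cd8b1, Foxp3, Ctla4 and 2 ratios were given two-sided exact permutation tests in Python 3.11.15 (numpy 2.4.6, pandas 2.3.3, scipy 1.17.1), and figures were drawn with matplotlib 3.10.9. The alternatives changed the pseudocount (1 or 0.01), the gene filter, the scaling, the block, the model and the mice. Promoters are RefSeq, GRCm38.p6. Limits: without read counts a count-based test could not be run and the error of low values is unknown. Mice received cells or not together with the intrauterine administration. The members were few and low, so moderate changes could be missed.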

Additional observations from a re-analysis of the deposited data

Results flagged for a closer look

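Of 40 sets of 5 values (10 genes in 4 groups), 3 held a value far from the other 4 by Dixon's test on log2(TPM + 0.1), where chance alone gives about 1 in 20. Cd3g in IF replicate 1 was 12.5 TPM, against 5.61 to 6.41 TPM in the other IF mice (Q = 0.833). Foxp3 in control replicate 3 was 0.125 TPM, against 0 in the other control mice (Q = 1.0). With the other 4 tied at 0, Q is 1.0 for any value above 0, so this one says nothing about its size and adds nothing to the count. Foxp3 in PBMC replicate 2 was 0, against 0.0922 to 0.130 TPM in the other PBMC mice (Q = 0.785). The Q values are on the log2 scale, and on TPM itself the set of values that stand apart differs.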

How the results depend on the processing

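Of 1150 member log2 fold changes under the alternatives, 1092 kept their direction and their side of the threshold, 41 reversed, 8 became stronger and 9 weaker. Of 330 exact tests 309, of 220 ratios 211, and of 160 member counts 143 stayed the same. In IF versus control the number of members called went from 1 to 0 with genes above 0 in at least 1 library (Trac adjusted p = 0.0540), which tests more genes. It also went to 0 with array weights (0.0644) and without control replicate 2 and IF replicate 1 together (0.124), an alternative chosen after seeing the data. Leaving out 1 mouse it ran from 0 to 2. In PBMC-hCG versus IF it went from 0 to 1, Il2ra, with the replicate block (0.0446), array weights (0.00406) and the pair left out (0.0479), and ran from 0 to 1 leaving out 1 mouse. In both PBMC groups versus IF it went from 0 to 1 with array weights (Il2ra 0.62, adjusted p = 0.0138). The cause was not tested. The log2 fold changes of Trac and Cd4 in IF versus control ran from 0.48 to 0.67 and from 0.31 to 0.58 leaving out 1 mouse, and that of Il2ra in PBMC-hCG versus IF from 0.53 to 0.78. With pseudocount 1 the Il2ra value was 0.35 in PBMC-hCG versus IF and 0.24 in both PBMC groups versus IF.

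For the values that reversed, the cause was not tested. In IF versus control Cd3d was -0.00093 with pseudocount 1, -0.026 scaled to the same median, -0.0089 with quantile normalization, -0.099 with array weights and -0.076 with the pair left out. With array weights Cd3g was 0.022 and Cd8a -0.16, and with the pair left out Cd8a was -0.068. In PBMC versus IF Cd4 was 0.074 with array weights. In PBMC-hCG versus IF Trac was 0.0036 with array weights and 0.069 with the pair left out. In PBMC-hCG versus PBMC Cd3d was -0.048 with array weights. In both PBMC groups versus IF Cd3e was -0.0079 scaled to the same median, -0.073 with quantile normalization and -0.050 with array weights. With pseudocount 1 the ratio Foxp3 to Cd3e in IF versus control was -0.11 (1.77 with 0.01, as Foxp3 is at 0 in most control mice) and Cd8a to Cd4 in PBMC-hCG versus IF -0.048. With pseudocount 0.01 Cd8b1 in PBMC-hCG versus IF was -0.29, and Foxp3 was 0.023 in PBMC-hCG versus IF, 0.027 in PBMC-hCG versus PBMC and 0.0096 in both PBMC groups versus IF.

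Leaving out 1 mouse, IF versus control ran from -0.24 to 0.21 for Cd3d, -0.28 to 0.098 for Cd3g, -0.14 to 0.47 for Cd8a, 0.51 to 0.87 for Foxp3 and 0.42 to 0.95 for Ctla4. PBMC versus IF ran from -0.12 to 0.26 for Cd3d, -0.19 to 0.077 for Cd4, -0.23 to 0.20 for Foxp3 and -0.67 to -0.20 for Ctla4. PBMC-hCG versus IF ran from -0.21 to 0.49 for Cd8a, -0.12 to 0.13 for Trac, -0.17 to 0.80 for Cd8b1, -0.32 to 0.024 for Foxp3 and -0.34 to 0.30 for the ratio Cd8a to Cd4. PBMC-hCG versus PBMC ran from -0.014 to 0.33 for Cd3d and -0.30 to 0.026 for Foxp3. Both PBMC groups versus IF ran from -0.041 to 0.34 for Cd3d, -0.080 to 0.22 for Cd3e, -0.048 to 0.22 for Cd4, 0.34 to 0.82 for Cd8b1, -0.27 to 0.066 for Foxp3 and -0.19 to 0.067 for the ratio Foxp3 to Cd3e.

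Over all genes the number called in IF versus control went from 4104 to 2473 with only the groups compared, which uses fewer mice, and to 6248 with array weights. In PBMC-hCG versus IF it went from 2544 to 1536 and 812 with genes above 0 in at least 5 and at least 1 libraries and to 8078 with array weights, and ran from 0 to 5062 leaving out 1 mouse. In PBMC versus IF it went from 0 to 34 with array weights and to 1 with either filter, and ran from 0 to 2. In PBMC-hCG versus PBMC it went from 2 to 1461 with array weights and to 1 with pseudocount 1 or a mean of at least 1 TPM, and ran from 2 to 7. In both PBMC groups versus IF it went from 4 to 6081 with array weights, to 2 with either filter or quantile normalization, to 1 scaled to the same median and to 0 with the block or only the groups compared, and ran from 0 to 1925. Mice of the same number in different groups shared only a number: their 30 correlations ran from -0.247 to 0.457 (median -0.00970), 8 were above 0.1, and 2 of 20 mice correlated best with their own number. With the block 4153, 0, 3215, 2 and 0 genes were called in the 5 comparisons, and it changed no other member call than that of Il2ra. Of 1728 calls of listed genes over the alternatives, 1335 were kept and 393 lost. Unknown depth limits the values under 1 TPM most.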
